A study of Bos taurus with 8 samples.

Results

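The insulin-like growth factor (IGF) system of bovine granulosa cells was described here through 10 genes: the ligands IGF1 and IGF2, the receptor IGF1R, the adaptors IRS1 and IRS2, the binding proteins IGFBP2, IGFBP3, IGFBP4 and IGFBP5, and the protease PAPPA. The genes are taken by symbol, and every probe that the platform annotation assigns to one of these symbols was used. This gave 11 probes for 9 genes, of 15216 genes named on the array. IGF2 had 3 probes and each other gene 1, and IRS2 was not analysed here. Cells came from slaughterhouse ovaries, from follicles of 2 to 6 mm in diameter, and were cultured for 48 h. Treated cultures received follicle-stimulating hormone (FSH) at 1 ng/ml for the last 4 h, and control cultures received none. Each of 8 two-colour arrays compared amplified RNA of a control culture with that of a treated culture, in 4 replicates. Each replicate was hybridised on 2 arrays with the dyes exchanged. The labels give 4 ovaries or follicles to each biological replicate, so a replicate may combine animals. Whether the control and treated cultures of a replicate shared ovaries is not stated, and the p-values cover only the spread among these samples.

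IGF ligands bind IGF1R, a receptor tyrosine kinase, which phosphorylates the IRS adaptors and through them activates PI3-kinase and AKT. IGF-binding proteins hold the ligands in the extracellular fluid and limit their access to the receptor. PAPPA is a secreted metalloprotease that cleaves IGFBP4 and IGFBP5 and so frees bound ligand. In the follicle the IGF system is known to act together with FSH on granulosa cell growth and estradiol synthesis, and in cattle low-molecular-weight binding proteins decline in the fluid of the follicle that becomes dominant.

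With FSH, IGFBP3 was 3.69-fold above control on average, IGF1R 1.67-fold, IGFBP5 1.29-fold and the brightest IGF2 probe 1.24-fold. Each of these was above control in all 4 replicates, on both arrays of each. None passed the test over the 4 replicates with limma after adjustment over all 36531 tested probes, as no probe of the array did. Ratios above 0 in all 4 replicates were found for 10.7% of all tested probes. IGFBP3, IGF1R and IGFBP5 passed in a fit of the 8 arrays with the replicate as a block, which is weaker evidence. The probes of IGF1, IGFBP2, IGFBP4 and PAPPA were dim, so a small ratio there does not show that a gene did not differ. Values below are log2 throughout. A ratio is FSH over control, and a level is the normalised log2 intensity of a single channel, averaged over both arrays of a replicate. Levels are compared within a probe only.

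Replicate 3 stood apart from the others on the array as a whole. Over the 8799 tested probes whose mean log2 intensity exceeded 9, its ratios correlated with those of replicates 1, 2 and 4 at r = -0.10, -0.12 and 0.30. Among themselves those 3 correlated at 0.43 to 0.72. These correlations run across probes of shared arrays and are a description. NR4A1, an immediate-early nuclear receptor, had ratios of 3.22, 4.37 and 4.10 in replicates 1, 2 and 4 and of 0.13 in replicate 3. Its control level was 14.88 in replicate 3 and 10.91 to 11.23 in the other controls, against 14.46 to 15.28 with FSH. Ratios are therefore also given without replicate 3 where that moved them by over 1.5 times or changed a call. Leaving it out was a choice made with these outcomes known, so a lower p without it is no independent support. Between 71.4% and 84.2% of gene probes exceeded the negative control limit in each channel, and the number of arrays limits the precision.

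Of 8 granulosa cell markers, 7 were above the limit in all 16 channels, among them FSHR, CYP19A1, INHA and AMH, and FOXL2 in 5 FSH and 7 control channels. Of 5 theca markers, INSL3, PTCH1 and NR2F2 were above the limit in all 16 channels, CYP17A1 in 7 FSH and 8 control channels, and LHCGR in 2 of each. The mean level of these 5 was 7.67 to 7.88 in the controls and 7.58 to 7.69 with FSH. All 6 markers of fibroblasts and stroma (DCN, LUM, COL1A1, COL1A2, PDGFRA and POSTN) were above the limit in every channel. Their mean level was 9.86 to 11.08 in the controls and 10.23 to 11.25 with FSH. Of the tested endothelial markers 3 of 4 (CDH5, VWF and TEK) exceeded the limit in all 16 channels, and of the oocyte markers 2 of 3 (ZP3 and BMP15). So did 2 of 4 for smooth muscle (ACTA2 and CNN1), 2 of 4 for immune cells and 1 of 2 for erythrocytes. As 71.4% to 84.2% of all gene probes exceeded the limit in each channel, exceeding it does not tell cell types apart.

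Signal over background decided which of the genes could be read. The limit was the 95th percentile of 153 negative control spots, taken for each array and channel. The brightest IGF2 probe lay at 5.35 to 27.1 times this limit, IGFBP3 at 1.21 to 12.2 times, IGFBP5 at 1.35 to 6.56 times and IGF1R at 1.64 to 4.64 times. IGF2 probe 2 ranged from 0.860 to 3.75 times the limit. The 6 other probes, those of IGF1, IRS1, IGFBP2, IGFBP4, PAPPA and IGF2 probe 3, never exceeded 1.5 times the limit in any channel. Ratios this close to background are compressed, so their small size does not show that FSH had no effect. No member spot was saturated or rejected by the scanner software.

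**Figure D1:**
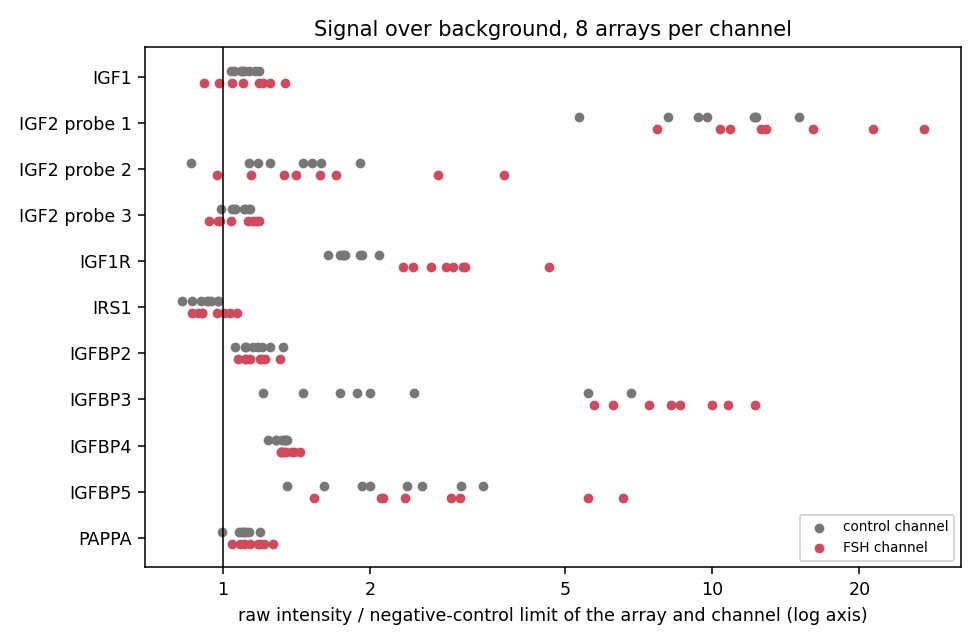
Raw mean intensity of each member probe divided by the negative control limit of the same array and channel (log axis). Each row has 8 control channels (grey) and 8 FSH channels (red), and the vertical line marks the limit. IGF2 probe 1, IGFBP3, IGFBP5 and IGF1R lie above the line in all 16 channels. So do the dim probes of IGFBP2 (1.06 to 1.33) and IGFBP4 (1.24 to 1.44), close to the line. IGF1R shows no overlap between its FSH values (2.33 to 4.64) and its control values (1.64 to 2.08).

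Among the ligands, IGF2 was measured well by 1 probe (probe 1, EMBV3_37311). Its control levels were 11.22, 9.90, 11.07 and 10.58 in replicates 1 to 4. With FSH they were 11.65, 10.41, 11.11 and 10.85. Replicate 1 was highest and replicate 2 lowest in both groups, and the groups overlapped. The range of 1.31 among the controls was wider than any difference between FSH and control within a replicate. The ratio was 0.43, 0.51, 0.04 and 0.27, with a mean of 0.31 ± 0.09 (SE, n = 4 replicates, adjusted p = 0.318 with limma). Without replicate 3, in which the channels hardly differed, the mean was 0.41 ± 0.07 (adjusted p = 0.135 with limma).

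The order of IGF2 levels across cultures was shared in part by stromal markers. The mean level of the 6 fibroblast and stroma markers was 11.08, 9.86, 10.31 and 10.26 in the controls of replicates 1 to 4 and 11.25, 10.23, 10.26 and 10.37 with FSH. This mean was thus also highest in replicate 1, and lowest in replicate 2, with FSH only just. In the controls, DCN was lowest in replicate 4 (9.45), POSTN in replicate 3 (9.03) and the other stromal markers in replicate 2. With FSH, COL1A1, COL1A2 and PDGFRA were lowest in replicate 2, DCN (9.67) and POSTN (8.80) in replicate 3 and LUM (13.51) in replicate 4. Of the smooth muscle markers, CNN1 was also highest in replicate 1 (control 11.07, FSH 10.70) and lowest in replicate 2 (8.18 and 8.39). ACTA2, MYH11 and DES did not hold both of these places. Genes outside the marker lists held both in each group, among them HTRA1, IGFBP7, CSTB and TMSB4X, so this order is not particular to stromal markers. In bulk RNA fewer cells of a type and less RNA per cell cannot be told apart. The part of stromal or smooth muscle cells in the IGF2 level was not tested.

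IGF2 probe 2 (EMBV3_41040) had ratios of 0.71, -0.02, 0.32 and 0.23 and a mean of 0.31 ± 0.13, which was 0.18 without replicate 1. It differed between dye orientations: its mean ratio was 0.65 where FSH was in Cy5 and -0.028 where FSH was in Cy3. IGF2 probe 3 (EMBV3_16283) was near background in every channel, with a mean of -0.04 ± 0.04. Only the brightest probe thus gives a ratio of IGF2 that holds in both orientations.

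IGF1 (EMBV3_19992), the ligand that acts with FSH in cultured granulosa cells, was above the limit in 6 FSH and 8 control channels. Its control levels were 7.06, 7.03, 6.99 and 6.94, and its FSH levels 7.03, 7.01, 7.05 and 6.92. These values spread over no more than 0.13 in either group and overlapped. The mean ratio was -0.00267 with a 95% interval of -0.109 to 0.103, in a probe whose compression by background is unknown. Without replicate 3 it was -0.023.

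The receptor IGF1R (EMBV3_01742) was the only member whose FSH and control levels did not overlap. The control levels of IGF1R were 7.93, 7.83, 8.08 and 7.83 in replicates 1 to 4. Its FSH levels were 8.44, 9.07, 8.69 and 8.44. The lowest treated culture thus lay above the highest control, replicate 3 included. Of all tested probes, 1.67% had all 4 FSH levels above all 4 control levels. The ratio was 0.51, 1.23, 0.61 and 0.60, so replicate 2 differed most and the other 3 were close together. The mean was 0.74 ± 0.14 (SE, n = 4), or 1.67-fold, with a 95% interval of 0.39 to 1.09 (adjusted p = 0.229 with limma). Without replicate 3 it was 0.78 ± 0.17 (adjusted p = 0.169 with limma), and without replicate 2 it was 0.58.

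The control levels of IGF1R had a standard deviation of 0.11, against a median of 0.13 over all tested probes. This spread was an ordinary one, at least as wide as that of 44.7% of tested probes. Its control channels lay at 1.64 to 2.08 times the limit, and the part of compression by background in their spread was not tested. The control standard deviations of IGF2 probe 1, IGFBP3 and IGFBP5 were 0.59, 1.25 and 0.61, wider than those of 96.0%, 99.4% and 96.2% of tested probes. IRS1 (EMBV3_09737), the adaptor next to the receptor, exceeded the limit in 3 FSH channels and 0 control channels. It did not enter the test, and no fold is given for it.

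IGFBP3 (EMBV3_35259), the main carrier of IGF in blood, had the largest ratio of the members. In the controls its levels were 8.05, 7.27, 10.19 and 8.09 in replicates 1 to 4. With FSH they were 9.69, 10.09, 10.52 and 10.83. The controls of replicates 1, 2 and 4 lay far below every treated culture, and the control of replicate 3 lay among the treated ones. The ratio was 1.65, 2.83, 0.32 and 2.74, and the mean 1.88 ± 0.46 (SE, n = 4), or 3.69-fold. Its 95% interval ran from 0.67 to 3.09 (adjusted p = 0.288 with limma).

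The level of IGFBP3 thus followed the same samples as that of NR4A1: both were high in the library labelled control of replicate 3. Without replicate 3 the mean ratio of IGFBP3 was 2.40 ± 0.27, or 5.29-fold (adjusted p = 0.107 with limma). The standard deviation of its levels was 1.25 in the controls and 0.49 with FSH. Raw intensities of the 2 dyes differ in scale, so they are compared within a dye. On the array of replicate 3 with FSH in Cy5 the control spot read 1368 and the FSH spot 1386, at a normalised ratio of 0.39. On the arrays of the same orientation in replicates 1, 2 and 4, the control read 438, 281 and 377, and FSH 849, 955 and 1433. With FSH in Cy3 the control of replicate 3 read 1050 and FSH 1493. In replicates 1, 2 and 4 of that orientation the control read 319, 159 and 309, and FSH 1046, 1161 and 1868.

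**Figure D2:**
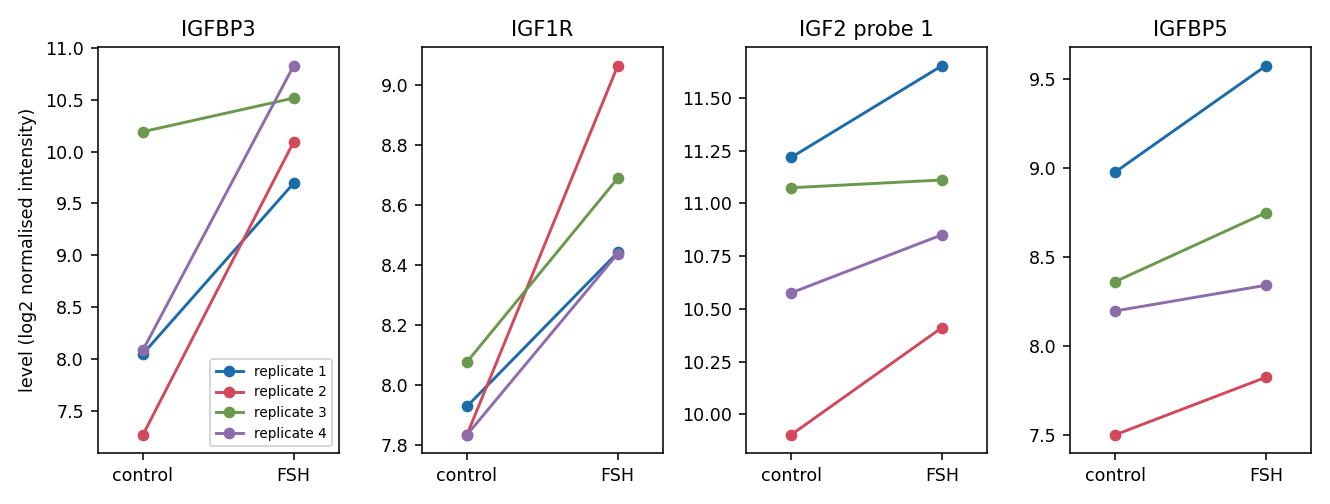
Levels (normalised log2 intensity) of IGFBP3, IGF1R, the brightest IGF2 probe and IGFBP5 in the control and FSH channels, with lines joining the channels of 1 replicate. The vertical axes differ between panels and do not start at 0. All lines run upward, but the line of replicate 3 is nearly flat for IGFBP3 (10.19 to 10.52) and IGF2 (11.07 to 11.11) and not for IGF1R (8.08 to 8.69).

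IGFBP5 (EMBV3_02670), a binding protein and substrate of PAPPA, had control levels of 8.98, 7.50, 8.36 and 8.19 and FSH levels of 9.57, 7.82, 8.75 and 8.34. Its levels took the same order in both groups, from replicate 1 as the highest to replicate 2 as the lowest, and the groups overlapped. The same replicates were highest and lowest for IGF2, for the mean of the stromal markers and for CNN1. The other smooth muscle markers, ACTA2, MYH11 and DES, did not hold both of these places. The part of stromal or smooth muscle cells in the IGFBP5 level was not tested. The ratio was 0.60, 0.32, 0.39 and 0.14, with a mean of 0.36 ± 0.08 (SE, n = 4, adjusted p = 0.273 with limma). Replicate 3 was not low here, and without it the mean was 0.36 ± 0.11 (adjusted p = 0.258 with limma).

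IGFBP2 (EMBV3_22692), a binding protein of follicular fluid, had control levels of 7.01 to 7.29 and FSH levels of 6.91 to 7.25, which overlapped. Its mean ratio was -0.03 ± 0.04. IGFBP4 (EMBV3_38807), also a substrate of PAPPA, had control levels of 7.24 to 7.42 and FSH levels of 7.25 to 7.44, with a mean ratio of 0.02 ± 0.07 (0.04 without replicate 3). PAPPA (EMBV3_15420) was above the limit in 8 FSH and 7 control channels, with levels of 6.82 to 7.11 in the controls and 6.99 to 7.11 with FSH. Its ratio was 0.13, 0.30, -0.11 and 0.01, with a mean of 0.08 ± 0.08. That mean was 0.15 without replicate 3 and 0.011 without replicate 2. The 95% intervals of these 3 genes were -0.143 to 0.0826, -0.146 to 0.195 and -0.122 to 0.286. A larger difference hidden by background was not detectable with these probes.

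**Figure D3:**
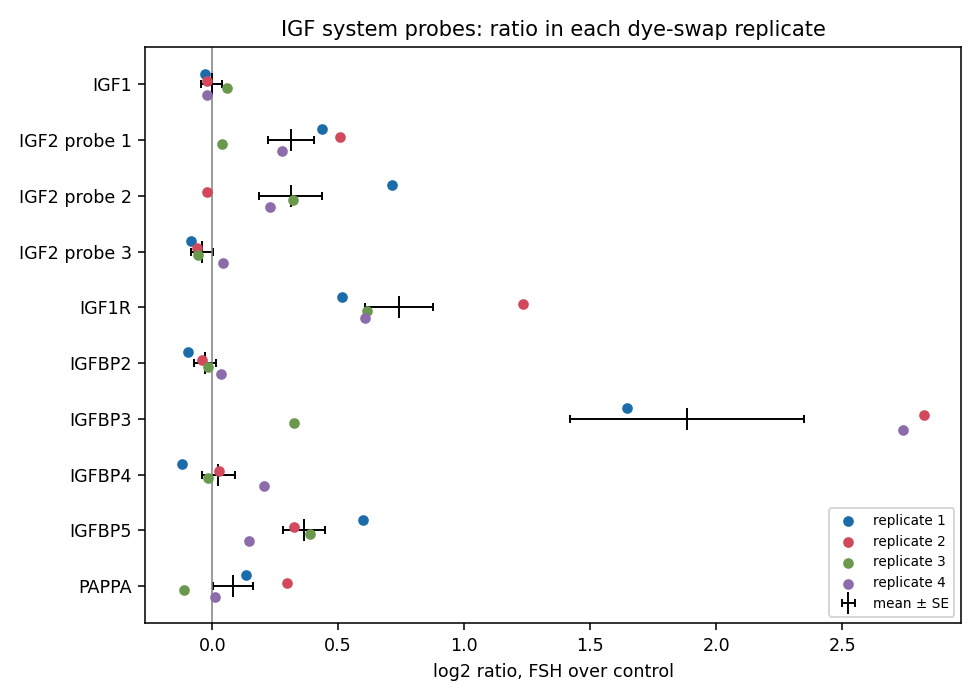
Log2 ratio of FSH over control for the 10 tested member probes: a point for each replicate, with the mean and its limma standard error in black. IGFBP3 lies furthest from 0 in replicates 1, 2 and 4, and IGF1R, IGFBP5 and IGF2 probe 1 lie above 0 in all 4 replicates, while IGF1 and IGFBP2 cluster at 0.

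The threshold was an adjusted p under 0.05. Over the replicate means it was passed by 0 member probes of 10 tested and by 0% of all tested probes. At an unadjusted p under 0.05 limma gave 4 member probes, all higher with FSH (IGF1R, IGFBP5, IGFBP3 and IGF2 probe 1) and none lower, where 6.94% of all tested probes were higher and 5.26% lower at that level. The same 4 probes had ratios above 0 in all 4 replicates, as 10.7% of tested probes did. In size, the mean ratio of IGFBP3 exceeded that of 99.9% of tested probes regardless of sign, and that of IGF1R exceeded 98.8%. The member probes that were tested are the brighter ones, and their number is too small for a statement about the IGF system as a whole.

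In a fit of all 8 arrays with a dye term, in which the replicate is a random block, IGF1R (adjusted p = 0.0129 with limma), IGFBP3 (adjusted p = 0.0231) and IGFBP5 (adjusted p = 0.0373) rose. IGF2 did not pass (adjusted p = 0.0736). No member fell. In this fit 2.06% of all tested probes were called higher with FSH and 1.44% lower. It assumes 1 correlation within replicates for all probes, so where the spread lies between replicates its errors come out smaller: 0.34 for IGFBP3, against 0.46 over the replicate means. Without replicate 1, 2 or 4, 0 probes of the whole array passed in this fit, so the loss of the 3 calls there is not particular to these genes. Their adjusted p with limma were 0.0639, 0.067 and 0.084 for IGF1R, 0.109, 0.141 and 0.159 for IGFBP3, and 0.168, 0.178 and 0.0869 for IGFBP5. Without replicate 3, IGFBP3 (adjusted p = 0.00293 with limma), IGF1R (adjusted p = 0.0171) and IGF2 (adjusted p = 0.0197) passed in it and IGFBP5 did not (adjusted p = 0.0626), where 7.19% of all tested probes were called, 3.83% higher and 3.36% lower.

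The dye swap bears on how far each ratio can be read. For IGFBP3 the ratio was 1.80, 2.87, 0.39 and 2.87 in replicates 1 to 4 on the arrays with FSH in Cy5. On those with FSH in Cy3 it was 1.49, 2.78, 0.26 and 2.61. IGF1R gave 0.49, 1.14, 0.59 and 0.62 with FSH in Cy5 and 0.54, 1.32, 0.64 and 0.59 with FSH in Cy3. Both genes thus kept the order of their extremes when the dyes were exchanged. The dye term passed for 4 member probes (IGF1, IGF2 probes 2 and 3, and IGFBP3), where it passed for 59% of all tested probes, with Cy5 the brighter for 32.8% and Cy3 for 26.2%. It was 0.34 ± 0.04 for IGF2 probe 2 (adjusted p = 0.000148 with limma) and 0.10 ± 0.03 for IGFBP3 (adjusted p = 0.0148), with Cy5 the brighter. For IGF1 it was -0.17 ± 0.04 (adjusted p = 0.00325 with limma), larger than any of its replicate ratios. The names of the deposited tables hold a number, apart from the replicate number, that differs between the 2 orientations. What it stands for is not stated, so an effect tied to it and a dye effect cannot be told apart.

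**Figure D4:**
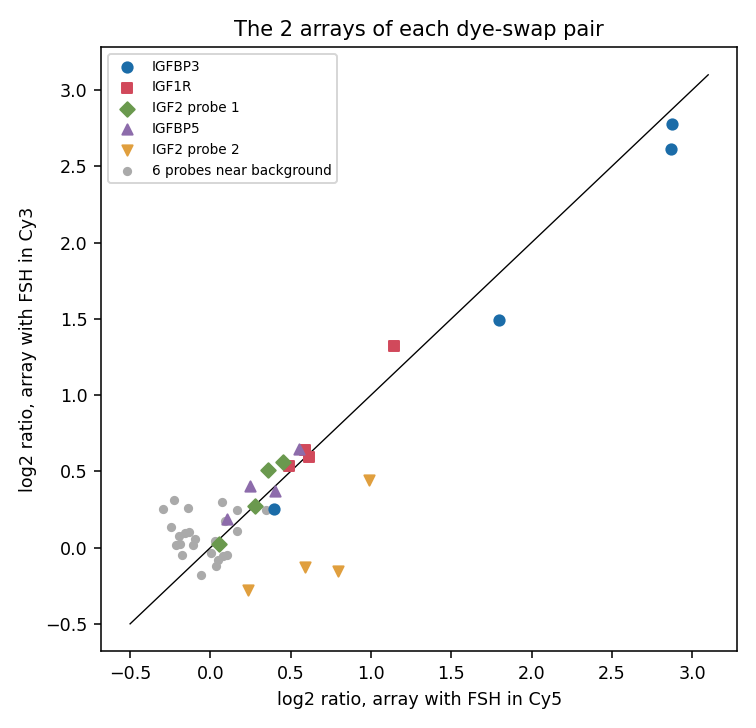
Log2 ratio of FSH over control on the 2 arrays of each dye-swap pair, with FSH in Cy5 (horizontal) against FSH in Cy3 (vertical). Each point is 1 replicate of 1 probe, and the line marks equal ratios. IGF1R, IGFBP5 and IGF2 probe 1 follow the line. IGFBP3 lies a little to its right in every replicate, at 0.39 to 2.87 with FSH in Cy5 and 0.26 to 2.78 with FSH in Cy3. IGF2 probe 2 lies further to the right, at 0.23 to 0.99 with FSH in Cy5 and -0.28 to 0.44 with FSH in Cy3.

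Beyond the 10 genes, a list of 32 other genes of IGF and insulin signalling was examined by the brightest tested probe of each. It holds receptors, further binding proteins, inhibitors of PAPPA, adaptors, phosphatases, SOCS proteins and IGF2 mRNA-binding proteins. Of these, 30 were tested, GRB10 was not analysed here, and IGFALS did not exceed the limit in any channel. Over the replicate means 0 genes passed with limma, against 0% of all tested probes, and 5 (4 higher and 1 lower) had an unadjusted p under 0.05, a level that 12.2% of all tested probes reached (6.94% higher and 5.26% lower). The median ratio of the list was 0.03, against -0.00161 for all tested probes. In the fit with the block, 2 genes rose and 1 fell, where 3.5% of all tested probes were called.

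SOCS2, which dampens signalling by the growth hormone receptor, had the largest ratio of the list. Levels in the controls were 7.65, 7.08, 8.77 and 7.58, against 8.60, 9.12, 9.23 and 9.07 with FSH. Only the control of replicate 3 reached the range of the treated cultures, as for IGFBP3. The ratio was 0.95, 2.04, 0.46 and 1.48, with a mean of 1.23 ± 0.27 (adjusted p = 0.269 with limma, and 0.0169 in the blocked fit). Without replicate 3 the mean was 1.49 (adjusted p = 0.119 with limma, and 0.00529 in the blocked fit). A second SOCS2 probe, with a mean log2 intensity of 7.06, was at -0.08 and close to background.

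GAB1, a docking protein that links receptor tyrosine kinases to PI3-kinase, differed in the other direction. Its control levels were 10.97, 10.84, 9.76 and 11.32 and its FSH levels 10.14, 9.63, 9.53 and 9.74. The control of replicate 3 again lay among the treated cultures. The ratio was -0.83, -1.21, -0.23 and -1.58, with a mean of -0.96 ± 0.23 (adjusted p = 0.285 with limma, and 0.0226 in the blocked fit). It was below 0 in all 4 replicates, on both arrays of each, and 9.63% of all tested probes were below 0 in all 4 replicates. Without replicate 3 the mean was -1.21 (adjusted p = 0.111 with limma, and 0.00458 in the blocked fit). A dimmer GAB1 probe gave 0.05, -0.53, 0.23 and -0.98 in replicates 1 to 4, so the probes differ in sign in replicates 1 and 3.

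SH2B1, an adaptor of the insulin receptor and of JAK2, was measured by a dim probe with a mean log2 intensity of 7.42, at which ratios are open to compression by background. Its control levels were 7.27, 7.24, 7.27 and 7.30 and its FSH levels 7.47, 7.57, 7.59 and 7.67, without overlap. All 4 FSH levels lay above all 4 control levels in 1.67% of all tested probes. SH2B1 had the lowest unadjusted p of the list. Its mean ratio was 0.30 ± 0.05 (adjusted p = 0.212 with limma, and 0.0347 in the blocked fit), and 0.30 without replicate 3. In the blocked fit SH2B1 did not pass without any 1 of the replicates, with adjusted p of 0.0607 to 0.207, while SOCS2 and GAB1 did not pass without replicate 1, 2 or 4, where 0 probes of the array did.

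SOCS1, a related inhibitor of cytokine signals, had ratios of 0.13, 0.34, 0.94 and 1.37 and a mean of 0.69 ± 0.23. Here replicate 3 was not low, and replicate 4 stood highest in both groups, at 11.05 in the control and 12.42 with FSH. The leukocyte marker PTPRC was also highest in replicate 4, at 9.52 in the control and 10.87 with FSH, against 7.26 to 7.58 elsewhere. Of the other 3 immune markers, CD14 was highest in replicate 4 in both groups, CD68 in replicate 4 of the controls and replicate 1 with FSH, and CD3E in replicate 2 in both. The mean level of the 4 immune markers was 7.27 to 8.27 in the controls and 7.47 to 8.44 with FSH. The smooth muscle marker DES was likewise highest in replicate 4, at 9.17 in the control and 9.72 with FSH, against 6.88 to 6.99 elsewhere. ACTA2 and CNN1 were highest in replicate 1 in both groups, and MYH11 in replicate 2 of the controls and replicate 4 with FSH. The part of immune or other cells in the SOCS1 level was not tested. The binding protein IGFBP1 had a mean ratio of 0.28 ± 0.09 but was above the limit in only 5 FSH and 2 control channels. Its ratio was 0.55 on the arrays with FSH in Cy5 and 0.015 on those with FSH in Cy3. The adaptor IRS4 was at 0.11 ± 0.05 and the RNA-binding protein IGF2BP3 at -0.07 ± 0.05 (-0.036 without replicate 1), both from dim probes with mean log2 intensities of 7.02 and 7.22. HTRA1, a secreted serine protease that cleaves IGFBP5, was at 0.16 ± 0.11, which was 0.05 without replicate 2 and 0.26 without replicate 3.

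The insulin receptor INSR, chosen after its values were seen, had ratios of 0.51, 0.51, -1.11 and -0.40, so that its mean of -0.12 ± 0.31 covers opposite differences and is 0.21 without replicate 3. IGF2R, the scavenger receptor of IGF2, was at -0.15 ± 0.11 (-0.06 without replicate 3) and STC1, an inhibitor of PAPPA, at 0.04 ± 0.08 (0.07 without it). Both are given as further parts of the IGF2 and PAPPA branches and were likewise named with their values known.

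**Figure D5:**
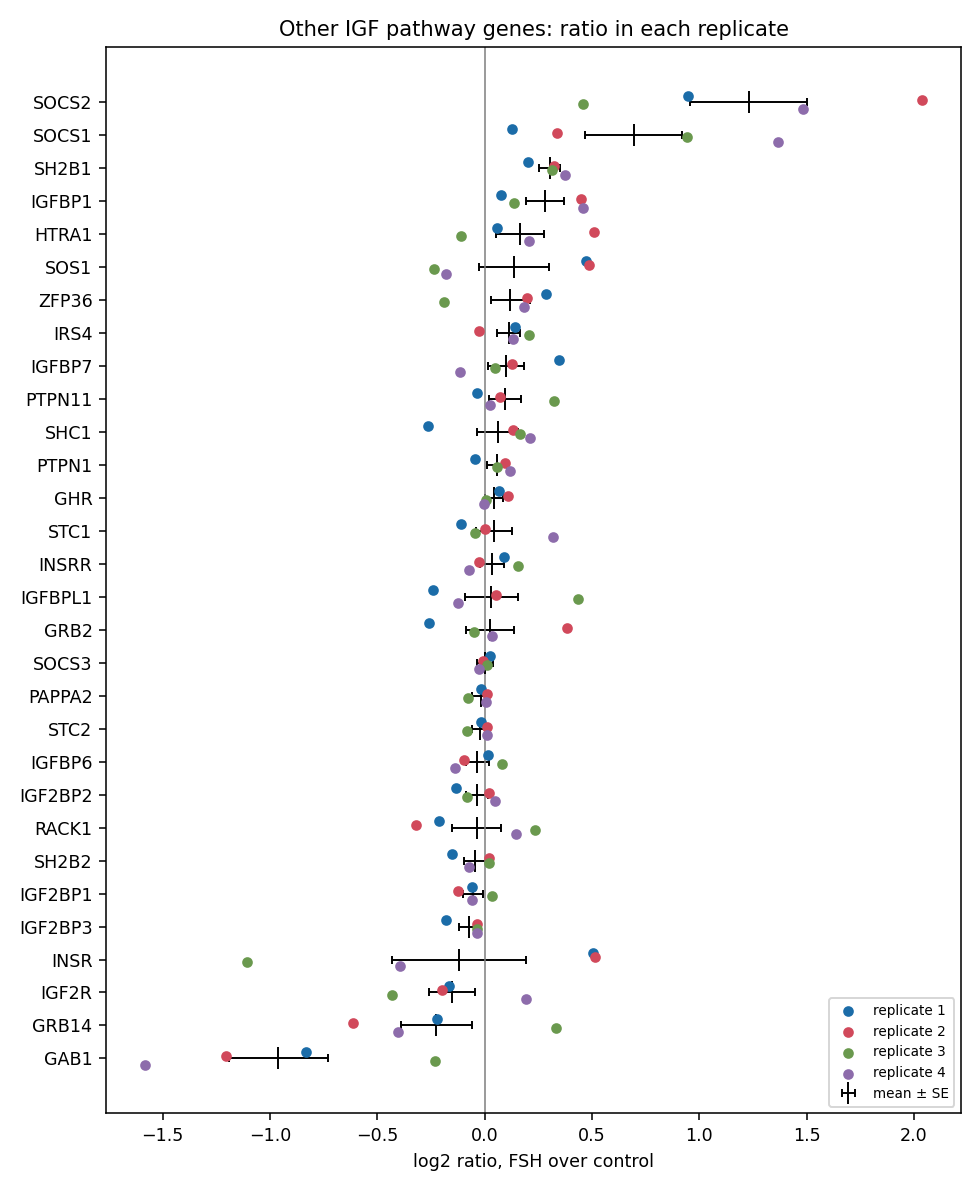
Log2 ratio of FSH over control for the 30 tested genes of the wider list, ordered by mean ratio: a point for each replicate, with the mean and its limma standard error in black. SOCS2 (1.23), SOCS1 (0.69), SH2B1 (0.30) and IGFBP1 (0.28) lie above 0 in all 4 replicates, as 10.7% of all tested probes do. GAB1 (-0.96) and IGF2BP3 (-0.07) lie below 0 in all 4, as 9.63% do, while most of the other genes scatter around 0.

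The genes most like IGFBP3 across the 8 samples (4 control and 4 FSH levels) were sought among 4906 other named genes with a mean log2 intensity above 9. LIN7B (r = 0.984), the hyaluronan synthase HAS2 (r = 0.978) and LOC100296627 (r = 0.976) came first. HAS2 had control levels of 7.41, 6.71, 10.98 and 7.55 and FSH levels of 9.92, 11.10, 10.74 and 10.92, with the control of replicate 3 again at the level of treated cultures. Those most like IGF2 were DCLK1 (r = 0.982), CSTB (r = 0.977) and TMSB4X (r = 0.975). DCLK1 was highest in replicate 1 and lowest in replicate 2 in both groups, at FSH levels of 11.38, 9.49, 10.57 and 10.30. These correlations are the highest of many, over few samples that share arrays, and are a description.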

How the data were processed

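The deposited scanner tables give raw mean intensities and median local backgrounds of each spot at both wavelengths, without subtraction or normalisation, per the file headers, which name no scanner software. Per the labels' protocols, RNA went through 2 rounds of T7 amplification before non-enzymatic coupling of Cy3 or Cy5. Each array held 45220 spots, 43794 of them gene probes. Spots marked as ignored (15 to 53 per array) were left out. The deposited series-wide log ratios were not used. Probe symbols came from the platform annotation, updated through RefSeq (20025 current, 1524 updated, 241 kept, 22004 probes without one). No build is named, so no coordinates are given.

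Intensities were corrected with normexp (offset 50) and ratios normalised by loess within arrays, with control spots at weight 0 (limma 3.58.1, R 4.3.3). Each ratio was expressed as FSH relative to control and averaged over same-numbered arrays. Levels were scaled by Aquantile. Tests covered probes above the negative control limit in 1 or both channels on 4 or more arrays. Replicate means were tested against 0 (lmFit, eBayes, two-sided, Benjamini-Hochberg over all tested probes), with a model that was tested on simulated data. Same-numbered arrays pair by the labels' replicate numbers: their deviations from the orientation means correlated at 0.787 to 0.924, and those of other numbers at -0.675 to 0.203. Subtracting the orientation means itself lowers the correlations of other numbers, so the contrast is partly built in. Figures used Python 3.11.15, matplotlib 3.10.9 and pandas 2.3.3.

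The members, the list of 32 further genes and the marker lists were chosen with earlier results of these data known. All members are named, with the 8 list genes of lowest unadjusted p and the 3 most similar genes of each member above a mean log2 intensity of 9. Alternatives covered background correction, normalisation, filter, variance trend, replicate block, dye orientation, probe choice and each replicate left out.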

Additional observations from a re-analysis of the deposited data

Results flagged for a closer look

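Of 54 groups of 4 values examined (ratios, control levels and FSH levels of the tested members and named list genes), 3 held a replicate far from the other 3, where chance marks about 1 in 20. The ratio of IGF1R in replicate 2 was 1.23, against 0.51 to 0.61 in the others. The ratio of IGF1 in replicate 3 was 0.058, against -0.03 to -0.02, in a probe near background. The ratio of IGF2BP3 in replicate 1 was -0.18, against -0.04 to -0.03.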

How the results depend on the processing

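Over the replicate means, 0 probes, 0 members and 0 list genes passed under each alternative of background, normalisation, filter, variance trend and, for the list, probe choice, and without each replicate. With the replicate block, 1277 probes, 3 members and 3 list genes passed with a dye term and 1432, 4 and 3 without one. On the arrays with FSH in Cy5 these counts were 1983, 1 and 4, and on those with FSH in Cy3 471, 0 and 1; here n is 4 arrays and the dye effect does not cancel. Leaving out replicates, the counts ranged over both fits from 0 to 2627, from 0 to 3 and from 0 to 3, and the upper ends are those without replicate 3. The ratios of IGFBP3 (1.57 to 2.40), IGF1R (0.58 to 0.85) and IGFBP5 (0.29 to 0.44) kept their sign in all alternatives run. So did those of IGF2 probe 1 (0.25 to 0.41), IGFBP2 (-0.05 to -0.00757) and PAPPA (0.01 to 0.15). Signs turned only in ratios near 0 or, for IGF2 probes 2 and 3, in a single orientation; the cause was not tested. IGF1 went to 0.00133 without background subtraction, to 0.17 with FSH in Cy3, and to between 0.00302 and 0.00622 (0.00307 without replicate 2) without replicate 1, 2 or 4, against -0.023 without replicate 3. With FSH in Cy3, IGF2 probe 2 was at -0.028, IGF2 probe 3 at 0.14 and IGFBP4 at -0.015. IGFBP4 was at -0.00313 with median centring and ranged from -0.036 without replicate 4 to 0.072 without replicate 1, and IGF2BP3 at 0.00734 with FSH in Cy5. With the mean of all tested probes of a gene, IGF2 was at 0.19, SOCS2 at 0.58 and GAB1 at -0.64. Dim probes limit what can be read: 6 of 11 never exceeded 1.5 times the negative control limit.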
